A study of Mus musculus with 5 samples.

Results

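The clustered protocadherin genes of the mouse lie in a single stretch of chromosome 18, and the accessible chromatin of that stretch is described here in fibroblasts with inducible Myc. The members were all DNase-seq peaks that overlapped chromosome 18 from 37000000 to 38100000 (build mm9) by at least 1 bp, a window of 1.1 Mb that holds the alpha, beta and gamma clusters in that order. There were 12 such peaks of 35149 in the first of the 3 distinct peak lists, 15 of 44956 in the second and 13 of 47621 in the third. Merged where they overlapped, they made 16 sites of 52181 in the whole genome, numbered here 1 to 16 from the alpha end to the gamma end.

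DNase-seq maps chromatin open enough for DNase I to cut, here in 3T9 cells, mouse embryonic fibroblasts immortalised by serial passage. All groups carried floxed c-myc alleles and MycER, a Myc fusion introduced by infection that becomes active when it binds 4-hydroxytamoxifen (4-OHT). The cells came from E13.5 embryos of mixed strain, so the model is an immortalised line with an added Myc. One group received ethanol vehicle (0 h) and the other 400 nM 4-OHT for 4 h, with 2 libraries each, and a sonicated input library completed the 5 samples. One and the same list of 44956 peaks was deposited for 4-OHT replicate 1 and for vehicle replicate 2, so its treatment is not known. It is called the repeated list. The vehicle list is that of vehicle replicate 1, and the 4-OHT list that of 4-OHT replicate 2. Each treatment thus had 1 list of undisputed label, so differences between lists had no replicate error to be set against and were not tested. Read depth is unknown, and a stretch without a peak is one where none was called.

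Clustered protocadherins are cadherin-like adhesion proteins of the cell surface, known above all from neurons, where each cell uses its own combination of them and the proteins on neighbouring membranes bind their like. In the alpha and gamma clusters each variable exon has a promoter of its own and is spliced to constant exons shared by the cluster, whereas each beta gene is a single coding exon. Promoter choice in neurons involves CTCF, cohesin and distant enhancers, and the C-type genes at the ends of the alpha and gamma clusters are used more widely than the other variable exons. The RefSeq gene table lists 14 alpha genes (Pcdha1 to Pcdha12, Pcdhac1 and Pcdhac2), 22 beta genes (Pcdhb1 to Pcdhb22) and 22 gamma genes, 58 in all. In its gene order Slc25a2, a mitochondrial carrier, and Taf7, a subunit of the TFIID transcription factor, stand between Pcdhb22 and Pcdhga1. Diaph1, a formin that nucleates actin, and the deacetylase Hdac3 follow Pcdhgc5. That table is on another genome build (GRCm38), so no site is tied to a gene or promoter here, and the gene label of the window could not be checked peak by peak. The window was divided into 11 bins of 100 kb. Bins 1 to 4 are called the alpha segment, 5 to 7 the beta segment and 8 to 11 the gamma segment, from the approximate place of each cluster. Bin 11 lies at or past the end of the gamma genes by that same approximate placing.

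The accessible sites were crowded at the gamma end, and the alpha segment had none. From 37000000 to 37400000 there was no peak in any of the lists. The beta segment held 2 peaks in the vehicle list, 3 in the repeated list and 2 in the 4-OHT list. The gamma segment held 10, 12 and 11 in the same order, or 83.3%, 80% and 84.6% of the peaks of the window. Bin 11 alone held 6, 6 and 7 of these. Without it, 4, 6 and 4 peaks remained in the gamma segment, so the crowding lay in large part at the outer edge of the window. The order alpha, beta, gamma from none to most was the same in all lists as deposited.

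**Figure D1:**
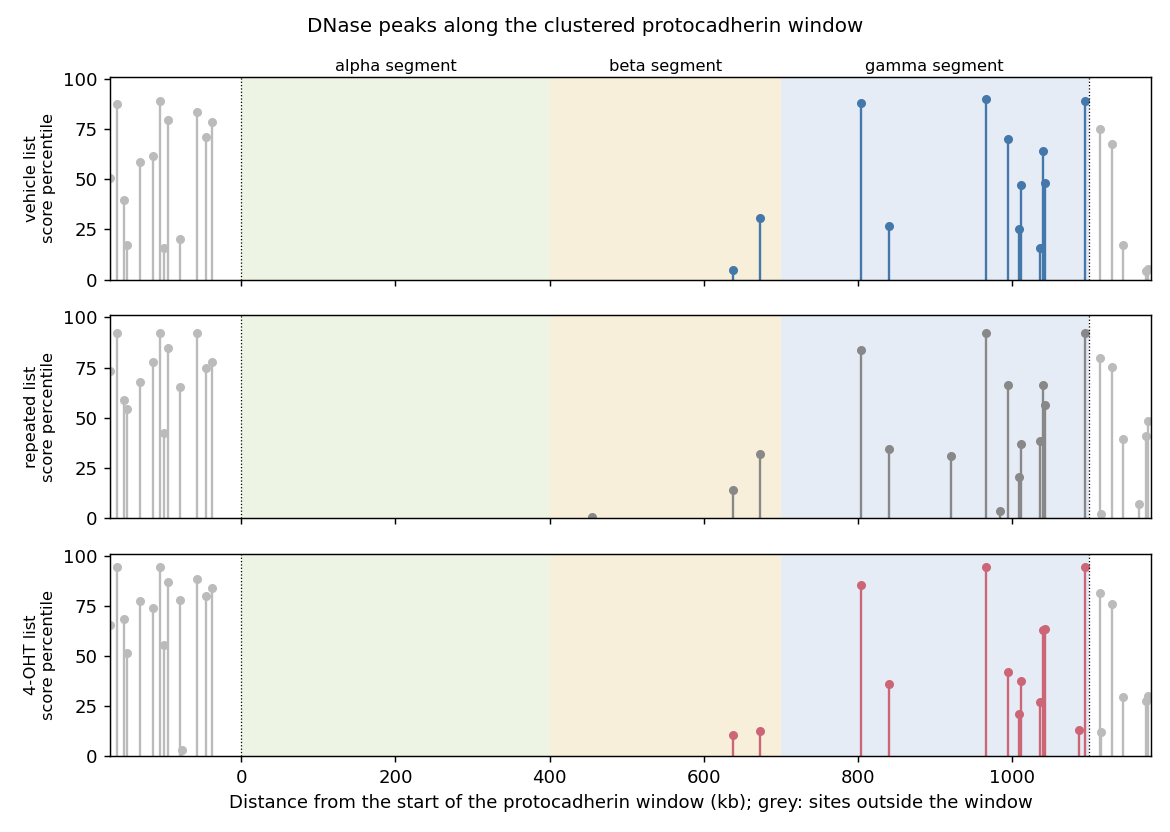
Peaks along the protocadherin window in the vehicle, repeated and 4-OHT lists. The horizontal axis is the distance from the window's start in kb, each stem is the midpoint of a site, and its height is the percentile of its score among all peaks of that list (grey stems lie outside the window, shading marks the segments). The alpha segment has no stem in any list, and within the window the highest stems stand at sites 4, 7 and 16 of the gamma segment.

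The peak-free stretch began before the window and was among the longest on the chromosome. In the vehicle list it ran from 36962034 to 37637229 (675 kb), and in the 4-OHT list from 36961993 to 37637143 (675 kb). In the repeated list it ended at 37454324 (492 kb), at the weak site 1. It ranked 23 of the 936 stretches between neighbouring peaks on chromosome 18 in the vehicle list, 24 of 1201 in the repeated list and 20 of 1275 in the 4-OHT list. The median stretch was 29.4 kb, 21.9 kb and 21.6 kb, and the longest on the chromosome 4605 kb, 4258 kb and 4258 kb. Over the whole genome 1.65%, 1.63% and 1.13% of stretches were longer. The bare alpha end was thus among the longest peak-free stretches of the chromosome, though other parts of it had much longer ones.

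The border of this stretch was sharp on the outer side. In the 100 kb before the window there were 5 peaks in the vehicle list, 5 in the repeated list and 6 in the 4-OHT list, with median scores of 1381, 1931 and 1870. The score is the peak caller's own and is higher for a more clear-cut peak (from 80 upwards, with many peaks at 3100). The last of them, at 36960785 to 36962096, scored 1381 in the vehicle list, 1931 in the repeated list and 2138 in the 4-OHT list. On the inner side the first peak was weak in every list, with scores of 88.8 (site 2, vehicle), 81.0 (site 1, repeated) and 99.2 (site 2, 4-OHT).

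**Figure D2:**
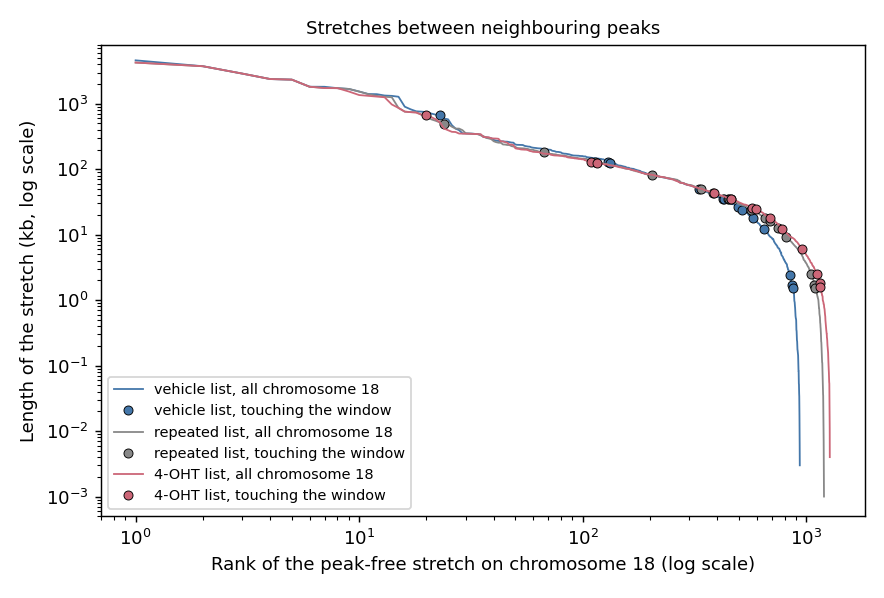
Length of every stretch between neighbouring peaks on chromosome 18, in kb on a log scale, against its rank, also on a log scale, for each list. Points mark the stretches that touch the protocadherin window, of which the longest (675 kb, 492 kb and 675 kb) rank 23, 24 and 20.

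Counted as a whole, the window was not poor in peaks. It had 10.9 peaks per Mb in the vehicle list, 13.6 in the repeated list and 11.8 in the 4-OHT list. The 85 windows of 1 Mb on the rest of chromosome 18 had medians of 8, 10 and 11 peaks per Mb and ranged from 0 to 49, 59 and 57. Of these, 51 had fewer than the protocadherin window in the vehicle list, 53 in the repeated list and 43 in the 4-OHT list. Without bin 11 the density was 6, 9 and 6 peaks per Mb, with 32, 33 and 26 windows lower. The other windows kept their own densest 100 kb, so a lower place for the window was built into this comparison. The adjoining 1 Mb on the alpha side had 38, 45 and 49 peaks, and that on the gamma side 22, 28 and 30.

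The window held a long bare stretch although its number of peaks was near the middle for the chromosome. Among 77 windows of 1.1 Mb on the rest of chromosome 18, 35 had at least as many peaks as the protocadherin window in the vehicle list, 34 in the repeated list and 44 in the 4-OHT list. The longest peak-free stretch inside the protocadherin window was 637 kb, 454 kb and 637 kb. Windows with at least as many peaks had a median of 254 kb, 196 kb and 208 kb for theirs, and the number with one at least as long was 0, 2 and 0. Among all 77 windows, whatever their number of peaks, 27, 35 and 26 had a peak-free stretch at least as long. Windows with more peaks leave less room for a long stretch, so these counts are a description only. By 100 kb bins, 7, 6 and 7 of the 11 bins held no peak, against 54.5%, 50.1% and 48.7% of the 866 bins on the rest of the chromosome. Bin 11 was the densest of the 11 in every list. Single bins with at least as many peaks made up 2.77%, 4.85% and 3.70% of those on the rest of the chromosome, a comparison that takes no account of bin 11 being the highest of 11.

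**Figure D3:**
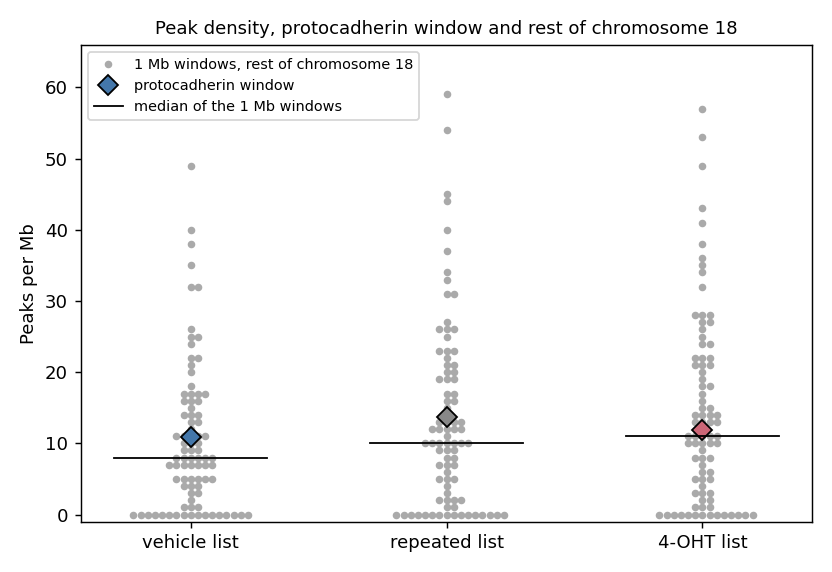
Peaks per Mb in the protocadherin window (diamonds) and in each of the 85 windows of 1 Mb on the rest of chromosome 18 (grey points), for the vehicle, repeated and 4-OHT lists, with a line at the median of the grey points. The diamonds, at 10.9, 13.6 and 11.8, lie slightly above the medians of 8, 10 and 11.

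Site 1, in the beta segment at 37454325 to 37454930, had a peak in the repeated list alone, with a width of 606 bp and a score of 81.0. Only 0.567% of the peaks of that list scored lower, counting ties by their middle rank, a measure called the score percentile below. Site 2, at 37637137 to 37638005, was also weak but was found in every list. It scored 88.8 in the vehicle list, 111 in the repeated list and 99.2 in the 4-OHT list, with percentiles of 5.0, 13.9 and 10.4. Genome-wide, 13.1% of the 4908 sites of the 4-OHT list with scores of 80 to 100 had a peak in the vehicle list, as site 2 did. Seen from the vehicle list, being shared was common, as 77.4% of its 3420 sites with such scores had a 4-OHT peak. Site 3, at 37673016 to 37673825, scored 172, 188 and 105 in the order vehicle, repeated and 4-OHT. Its percentile was 30.9 and 32.1 in the first pair and 12.7 in the 4-OHT list. All beta segment peaks were thus in the lower part of each list, and all were narrow, from 606 to 812 bp.

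Site 4, at 37803228 to 37804540, opened the gamma segment with a strong peak. In the gene order Slc25a2 and Taf7 stand between the beta and gamma genes, so a site here need not belong to the gamma cluster. Site 4 scored 2375 in the vehicle list, 2833 in the repeated list and 2321 in the 4-OHT list, with percentiles of 88.1, 83.9 and 85.3. The peak measured 1136, 1273 and 1274 bp. It stood alone, with 129 kb free of peaks before it in every list and 35.3, 35.2 and 35.2 kb after it. Site 5, at 37839734 to 37840500, followed with scores of 153, 202 and 196. Its peaks were 756, 647 and 676 bp wide, and 9.0%, 4.88% and 7.77% of the peaks of those lists were narrower.

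Site 7, at 37965384 to 37968826, was the widest of the window and the strongest in the vehicle list. It scored 2706 there and reached 3100 in both other lists, the value at which scores pile up. Its width was 2851 bp (vehicle), 3281 bp (repeated) and 3366 bp (4-OHT). It was wider than 96.3%, 96.9% and 97.8% of the peaks of those lists. No other peak of the window exceeded 1891 bp. Before it lay 125 kb without a peak in the vehicle and 4-OHT lists. In the repeated list site 6 (37921062 to 37921821, score 181) broke that stretch, and site 8 (37984653 to 37985446, score 85.9) lay beyond site 7. Neither had a peak in the other lists.

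Site 9, at 37994637 to 37996417, differed most between the lists. It scored 875 in the vehicle list and 855 in the repeated list, but 241 in the 4-OHT list. The percentiles were 70.2, 66.2 and 42.1, so the vehicle and repeated lists were close and the 4-OHT list stood apart. Widths differed less, with 1781, 1615 and 1562 bp. Of the 31871 sites found in all lists, 36 (0.113%) had a lower value of the 4-OHT minus the vehicle percentile than site 9, where it was −28.1 points. The site was singled out after its values were seen, and 4-OHT cannot be told apart from the replicate letter that separates these libraries. With lists of equal length (the 35149 highest-scoring peaks of each) the difference was −48.6 points, with 7 of 28810 shared sites lower. This cut leaves the vehicle list whole and takes only low scores from the 4-OHT list, which lowers the percentiles of the latter by design. Site 9 went to 21.6 there and stayed at 70.2 in the vehicle list. The median difference over the genome went from 9.04 to −0.354 points.

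The last 100 kb of the window, bin 11, held 7 sites, some in close groups. Sites 10 (38008762 to 38010007) and 11 (38011448 to 38012501) lay 1.54 kb apart in the vehicle list and 1.57 kb in the 4-OHT list. Site 10 scored 146, 133 and 129 in the order vehicle, repeated and 4-OHT, and site 11 scored 297, 219 and 209. Both ranked highest in the vehicle list, with percentiles of 25.2 and 47.2 there, and 20.4 and 36.7 in the repeated list. Sites 12 to 14 formed a second group from 38036510 to 38043777. Site 12 scored 115, 232 and 151, site 13 scored 634, 864 and 573, and site 14 scored 307, 486 and 585. Of this group site 14 alone ranked higher in the 4-OHT list than in both others, with a percentile of 63.4 against 48.1 (vehicle) and 56.3 (repeated). Ranking higher in that list than in both others was common, at 53.0% of the 31871 sites found in all lists. In the window 4 of 12 such sites did so.

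Site 15, at 38087320 to 38087953, was found in the 4-OHT list alone, with a score of 106 and a width of 634 bp. Site 16, at 38093908 to 38095798, closed the window with a score of 2558 in the vehicle list and 3100 in both others. Its width was 1891, 1763 and 1718 bp. With sites 4 and 7 it was 1 of the 3 that scored 1000 or more, and these 3 did so in every list. The next sites in order of score were site 9 and site 13 in the vehicle list, site 13 and site 9 in the repeated list, and sites 14 and 13 in the 4-OHT list.

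Peaks of the window were weaker and narrower than those of the rest of the chromosome in the median, by a margin that differed between lists. The median score was 302 in the vehicle list against 333 on the rest of chromosome 18, 219 against 387 in the repeated list, and 209 against 332 in the 4-OHT list. Median percentiles in the window were 47.7, 36.7 and 37.8. Of those 1 Mb windows that held 5 or more peaks, 26 of 59 had a lower median percentile in the vehicle list, 9 of 61 in the repeated list and 12 of 62 in the 4-OHT list. Median widths were 1064, 910 and 953 bp, against 1143, 1131 and 1062 bp on the rest of the chromosome. A score of 500 or more was reached by 5 of 12, 5 of 15 and 5 of 13 peaks (41.7%, 33.3% and 38.5%), against 40.6%, 43.8% and 40.4% on the rest of chromosome 18. For a score of 1000 or more these shares were 25%, 20% and 23.1% in the window and 24.4%, 30.6% and 27.9% on the rest of the chromosome.

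Neighbouring peaks lay closest together in bin 11. Distances were taken only between neighbours that both lay in the part named. The peak-free stretch that enters the window (675 kb vehicle, 492 kb repeated, 675 kb 4-OHT) is therefore not among them. The median distance between midpoints of neighbouring peaks was 28.6 kb in the vehicle list, 30.5 kb in the repeated list and 26.8 kb in the 4-OHT list, against 30.8, 23.1 and 22.7 kb on the rest of chromosome 18. In the beta segment, with at most 3 peaks, it was 35.8, 109 and 35.9 kb. In the gamma segment it was 25.1, 18.03 and 19.4 kb, ranging from 2.61, 2.56 and 2.60 kb to 127, 81.4 and 127 kb. For the merged sites of that segment it was 15.9 kb. Without bin 11 it was 36.3, 36.2 and 36.2 kb for the peaks of the lists, and 36.2 kb for the merged sites. In the vehicle and 4-OHT lists the beta value is a single distance, between 2 peaks. The gamma value without bin 11 rests on 4 peaks in each of these lists. Their distances ran from 28.6 to 127 kb (vehicle) and from 28.4 to 127 kb (4-OHT), so the close medians do not show like spacing. In bin 11 the median distance was 3.47, 3.46 and 5.37 kb. Each segment had fewer peaks than its cluster has genes: 0 in the alpha segment for 14 genes, at most 3 in the beta segment for 22, and at most 12 in the gamma segment for 22. Without bin 11, which lies at or past the end of the gamma genes, the gamma segment had at most 6. Segments are approximate and take in neighbouring sequence, so their peaks are not assigned to the genes. Peaks per gene were not counted elsewhere on the chromosome, so these numbers have nothing to be set against. How reads that match several places were treated is also not known.

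Most sites of the window were found in every list. In all 3 lists there was a peak at 12 of the 16 sites, or 75.0% (Wilson 95% interval 50.5% to 89.8%), against 61.1% over the genome. The vehicle list lacked 1 of the 13 sites of the 4-OHT list (site 15), or 7.69% (1.37% to 33.3%), against 29.6% over the genome. The repeated list lacked that same site, where it lacked 15.5% over the genome, and 13.8% of 4-OHT sites were in neither other list. Each of the 12 sites of the vehicle list had a peak in both other lists. The count of 0 missing leaves room for a share of up to 25%, and over the genome 3.87% were missing from the 4-OHT list and 4.39% from the repeated list. The repeated list had 3 of 15 sites (1, 6 and 8) that the vehicle list lacked, or 20% (7.05% to 45.2%), against 26.6% over the genome. The 4-OHT list lacked these same 3, with a genome share of 11.4%, and over the genome 10.1% of the sites of the repeated list were in neither other list. The intervals cover counting error only, each includes the genome share it is set against, and neighbouring sites are not independent.

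The 4 sites found in 1 list were all weak, scoring from 81.0 to 181, but other weak sites were found in every list. Of the 6 sites of the 4-OHT list that scored under 200, 5 had a peak in the vehicle list, where 28.9% of 16747 such sites did over the genome and 30.9% of 453 on the rest of chromosome 18. In the repeated list 3 of 6 did, where 32.0% of 14977 did over the genome. Seen from the vehicle list, each of its 5 sites under 200 had a 4-OHT peak, where 89.2% of 11960 did over the genome. The counts are small and the comparison was made after the sites had been seen.

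Scores at the shared sites of the window lay on either side of those of the vehicle list. Among the 12 shared sites the 4-OHT list scored higher than the vehicle list at 6 and lower at 6, whereas it scored lower at 8.46% of shared sites over the genome. In percentiles, the difference of the 4-OHT list minus the vehicle list ranged from −28.1 to 15.3 points in the window, with a median of 1.70 against 9.04 over all 31871 shared sites. With lists of equal length it was −13.7 points over 9 sites of the window and −0.354 over the genome. The repeated list scored above the vehicle list at 9 of the 12, against 84.9% of shared sites over the genome. At sites 2, 4, 7, 10, 13 and 16 the percentiles of the 3 lists lay within 8.90 points of each other, and the largest range was that of site 9. These values share 1 vehicle list, so they are not independent of each other.

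**Figure D4:**
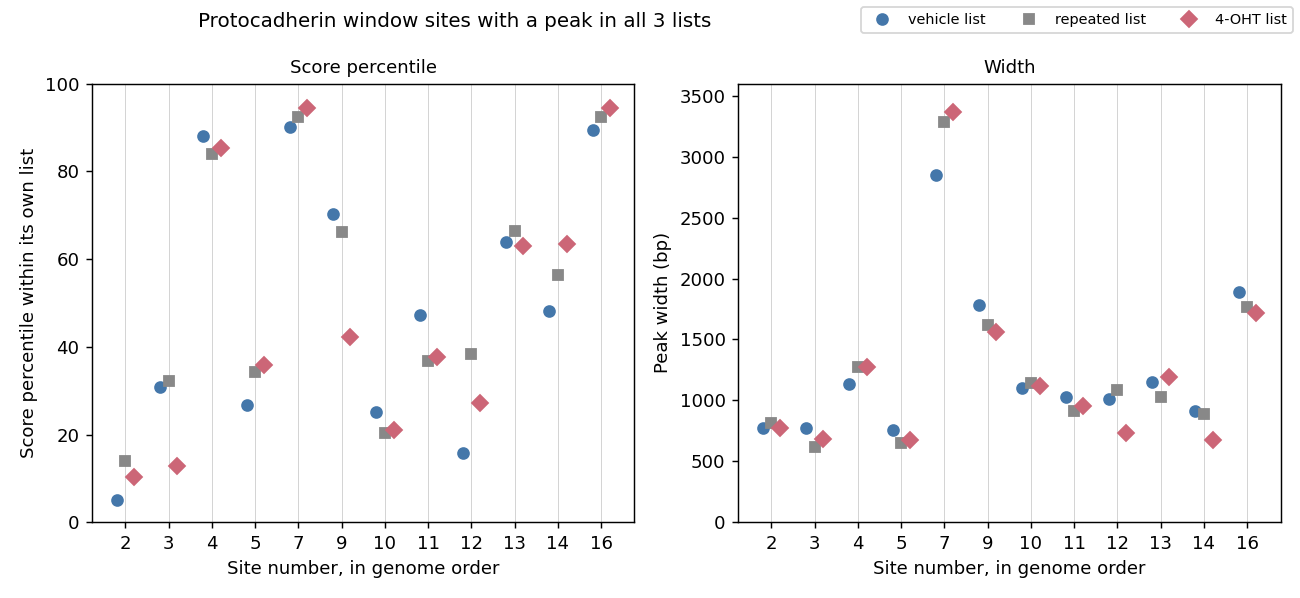
Score percentile within its own list (left) and peak width in bp (right) of the 12 protocadherin window sites with a peak in all 3 lists, in genome order. Each site has 1 point per list. Sites 4, 7 and 16 are above 80 in every list, site 9 is at 70.2, 66.2 and 42.1, and site 7 stands out by its width of 2851 to 3366 bp.

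Peaks at the shared sites were wider in the vehicle list more often than not. Each shared site of the window had a single peak in each list. The 4-OHT peak was wider than the vehicle peak at 4 of 12 sites, where it was wider at 68.1% of 29977 such sites over the genome. The repeated peak was wider at 5 of 12, against 74.5%. Median widths at the 12 sites were 1064, 1054 and 1034 bp in the vehicle, repeated and 4-OHT lists, against 1250, 1402 and 1346 bp over the genome. Sites 4, 7 and 10 were wider in both of these lists than in the vehicle list.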

How the data were processed

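The authors deposited 4 peak lists with a start, an end and a score for each peak. Per the submitters' processing notes, BWA 0.6.2, SAMtools, MACS 1.4.1 and mm9 were used, with settings not given in the sources used here, including how reads that match several places were treated. The deposited score is taken from the caller's name to be minus 10 times the log10 of a p-value. The other columns are plain positions.

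The 3 distinct lists were merged into sites at an overlap of 1 bp, and the merge was checked against bedtools 2.31.1. It was also run on 4000 simulated sites, with 100% recovered by the total of each class. Those sites were placed well apart, so closely neighbouring peaks were not tested. A site's score is its highest peak score. Starts are counted from 1. Peaks were placed in bins and segments by midpoint. Windows of 1 Mb start at whole Mb between the first and last peak of chromosome 18. Python 3.11.15, numpy 2.4.6, scipy 1.17.1 and matplotlib 3.10.9 were used. No test was possible with 1 list per treatment. Alternatives were equal list length, a score of at least 100, merging within 500 bp, an overlap of 50%, other windows, 3 equal parts of the window and leaving out each list. The rule for named sites (the 5 shared and 5 unshared sites of highest rank in each segment, the widest site and the longest gap) took in nearly all sites, so all 16 are given. The window, lists and comparisons were chosen with earlier results of these data known. Sequences of the window are not reported here.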

Additional observations from a re-analysis of the deposited data

How the results depend on the processing

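The sites in all lists numbered 9 to 12 under every alternative run. Without each list in turn the number was 12, but this had little room to fall. A site in all lists stays in any pair of them unless the list left out had joined the others. Equal list length, which leaves out peaks of the repeated list under 138 and of the 4-OHT list under 148, gave 0 in place of 1 for the 4-OHT sites that the vehicle list lacked, and 3 in place of 0 for the vehicle sites that the 4-OHT list lacked. Without bin 11 the gamma segment held 4 peaks in the vehicle list, 6 in the repeated list and 4 in the 4-OHT list, and the median spacing of its sites was 36.2 kb in place of 15.9 kb. The peaks of the vehicle list alone gave 25.1 kb. The longest peak-free stretch ranged from 492 kb to 841 kb. The value of 841 kb was that of the 4-OHT list at equal length, where sites 2 and 3 (scores of 99.2 and 105) fell under the cut. The beta segment then held no peak in that list, so it no longer differed from the alpha segment there. The alpha segment held 0 peaks also with 3 equal parts of the window. At site 9 the percentile difference was −48.6 points at equal length and −31.7 with a score of at least 100, both chosen after the data had been seen. Equal length in itself lowers percentiles of the 4-OHT list and not those of the vehicle list. No paired analysis was possible because no result comes from a test and 1 list carries both treatment labels. Depth is unknown, so a site without a peak cannot be called closed.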
